A study of Rattus norvegicus with 9 samples.

Results

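The Janus kinases Jak1, Jak2, Jak3 and Tyk2, the transcription factors Stat3 and Stat4, and the feedback regulators Socs1, Socs2, Socs3 and Cish were followed in rat synovium. These 10 genes were taken by their symbols from the 32883 rows of the deposited gene table, and all 10 were among the 15068 genes with enough reads to be tested. The 9 RNA libraries came from Lewis rat synovium, the soft lining of joints. The treatment labels name the groups TZG, AIA and NC, with 3 libraries each, and do not spell them out. They were read here as extract group (TZG, for a Tianhe Zhuifeng liquid extract in the title), arthritis model (AIA) and control (NC). The age of the rats, the way arthritis was brought on, the dose and whether TZG animals had arthritis are not given in the labels. Libraries carry the column names G30, G31 and G48 for TZG, M2, M6 and M8 for AIA, and C56, C59 and C61 for NC. The numbers of G31, G48, M2 and M8 are no sample title of their group, and these 4 were placed by letter. Whether each library is a different animal is not stated, and every p-value below therefore rests on a spread among libraries that could be technical.

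Cytokine receptors without kinase activity of their own carry Janus kinases on their inner tails. A bound cytokine brings the kinases together, they phosphorylate the receptor and then STAT proteins, and paired STATs move to the nucleus and switch genes on. Among those genes are Cish and the Socs family, whose proteins bind the receptor or the kinase and end the signal, so their transcripts are often read as a trace of recent cytokine signalling. In arthritis the pathway is the target of Janus kinase inhibitor drugs.

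Totals ran from 12536231 to 16402126 reads per library, and every gene of the set had at least 42 reads in every library. All 8 synovial fibroblast markers, among them the lubricant Prg4, had reads in each library, with summed levels of 18173 to 46602 CPM (reads scaled to a common library total with TMM factors) in TZG, 12295 to 18732 in AIA and 5553 to 29129.7 in NC. The libraries also differed in other tissues. Skeletal muscle markers summed to 19069.8 CPM in C61 and to 972 or less in each other library, cartilage markers to 6076 CPM in G48, 425 in G30 and at most 117 elsewhere, and erythroid markers to 690.2 CPM in M8 and at most 93.9 elsewhere. Neutrophil markers summed to 529 to 3631 CPM in TZG, 337 to 3167 in AIA and 15.3 to 34.4 in NC. In whole tissue, fewer cells of a type and less RNA per cell cannot be told apart.

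The clearest difference in the set was in Socs3, the feedback inhibitor of gp130 receptors such as that of interleukin-6. It was 4.50-fold higher in TZG than in NC (log2 fold change 2.17 ± 0.39, SE, n = 3 each), and Jak2, the kinase of many cytokine and hormone receptors, was 1.88-fold higher (0.91 ± 0.18). Jak1, Stat3 and Stat4 had log2 fold changes between -0.13 and 0.17 in every comparison and passed in none. Cish, which restrains STAT5 signalling, had its lowest mean in TZG and its highest in AIA, but did not pass any test of the present fit.

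Per transcript length, Jak1 and Stat3 had the highest means of the 10 genes in every group. On the scale of FPKM (reads scaled by gene length and library total), Jak1 averaged 88.9 ± 11.5 in TZG, 95.9 ± 9.34 in AIA and 88.2 ± 22.8 in NC (SD, n = 3 each). Stat3 averaged 81.3 ± 8.73, 74.0 ± 14.3 and 68.6 ± 13.3 FPKM in TZG, AIA and NC. The ranges of Jak1 and Stat3 overlapped in each group. In TZG, Socs3 came next at 62.1 ± 7.16 FPKM, followed by Jak2 at 27.3 ± 3.48 and Stat4 at 18.9 ± 1.79. These 3 did not overlap each other or Stat3. Socs2, Tyk2, Jak3, Socs1 and Cish followed in TZG with means of 13.2, 11.1, 8.86, 8.62 and 7.92 FPKM. Among these neighbours the libraries overlapped, except between Tyk2 and Jak3. In AIA, Cish, Socs3, Stat4, Jak2 and Socs2 lay between 22.9 and 17.7 FPKM with overlapping libraries, and Tyk2, Jak3 and Socs1 were at 11, 7.43 and 7.0 FPKM. In NC, Stat4, Socs2, Jak2, Cish and Socs3 lay between 17.3 and 12.9 FPKM, and Tyk2, Socs1 and Jak3 at 8.08, 5.73 and 4.53. Socs3 thus followed Jak1 and Stat3 in TZG but stood below Stat4, Socs2, Jak2 and Cish in NC, and Cish was last in TZG. The deposited gene model of Socs3 is 863 bases long, as long as its whole locus, and that of Stat4 8143 bases. FPKM levels depend on these lengths.

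**Figure D1:**
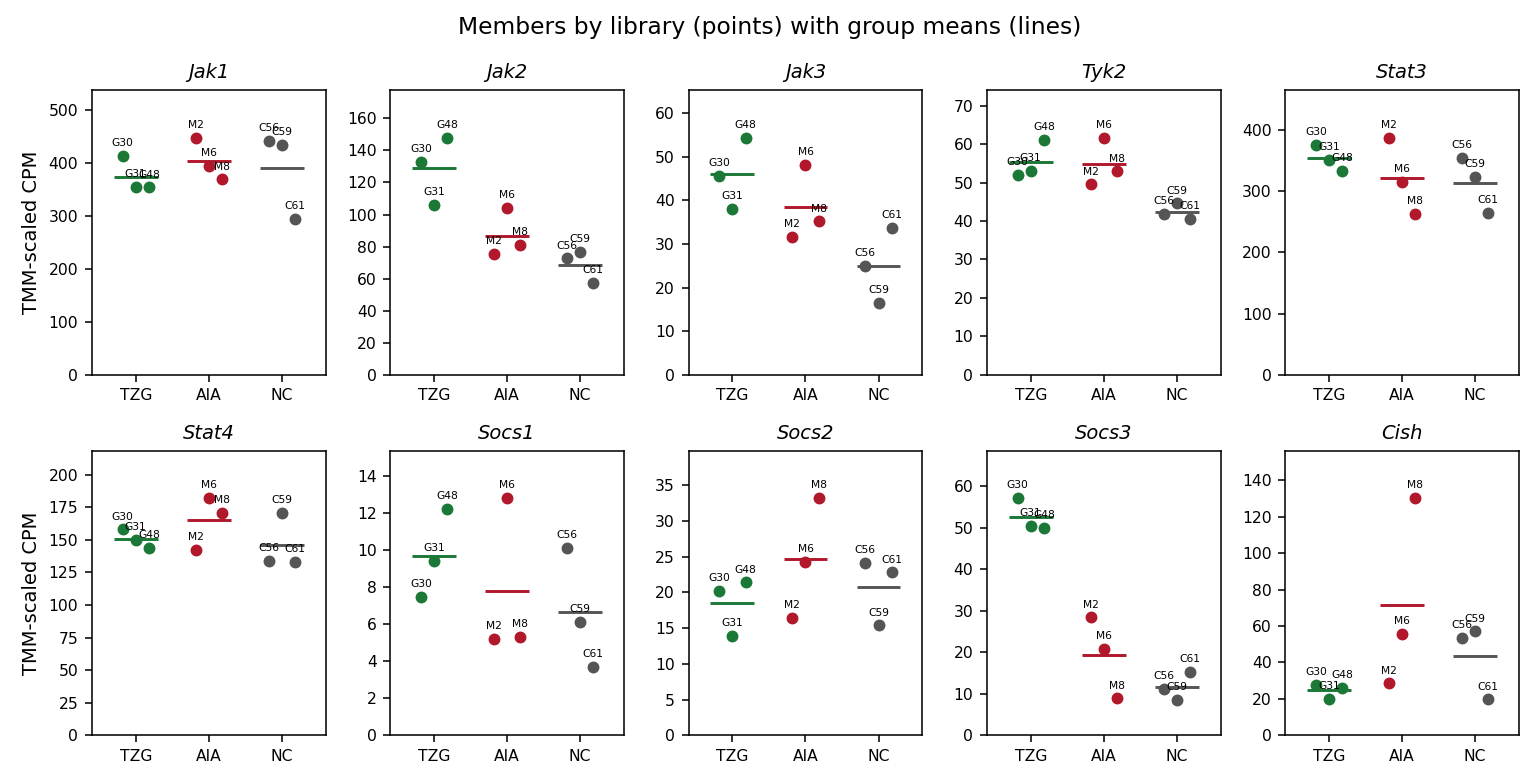
Levels of the 10 genes in CPM scaled by TMM factors, 1 panel a gene, with each point 1 library and each line a group mean of 3 libraries (TZG, AIA and NC from left to right). Socs3 is at 50 to 57.1 CPM in the TZG libraries and at 28.4 or less in every other library, whereas Jak1, Stat3 and Stat4 overlap between groups.

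A gene passed where edgeR's quasi-likelihood test gave a p under 0.05 after Benjamini-Hochberg adjustment over all 15068 genes. In AIA against NC none of the 10 genes passed, where 0.0133% of all genes did (0.00664% higher and 0.00664% lower), and 2 had an unadjusted p under 0.05, against 15.0% of all genes. DESeq2 and limma-voom also gave 0 of 10 in that comparison, against 6.26% and 0.00664% of all genes, and the authors' deposited table gives 0 of 10, against 4.32%. All 10 genes had a higher mean in AIA, as did 48.9% of all genes. Jak1 and Stat3 were higher by log2 fold changes of only 0.05 and 0.04. The signs of Jak1, Stat3, Socs1, Socs2 and Cish turned in some fits with 1 library left out. The median log2 fold change of the 10 genes was 0.29, where the median over all genes was -0.01. In TZG against AIA none of the 10 passed in edgeR, as for 0% of all genes, and 3 had an unadjusted p under 0.05, against 12.6%. There DESeq2 gave 1, Socs3, where it called 2.12% of all genes, limma-voom gave 0, and the authors' deposited table lists 2, Socs3 and Cish, at a q-value under 0.05, against 0.578% of its genes. By mean, 6 of the 10 stood above AIA in TZG, as did 50.2% of all genes, and 4 below. The median was 0.08, against 0.00 over all genes. In TZG against NC 2 of 10 passed, Socs3 and Jak2, where 10.3% of all genes passed (5.79% higher and 4.53% lower). An unadjusted p under 0.05 was reached by 4, against 29.1%. DESeq2 gave 4 of 10 against 19.7% of all genes, and limma-voom 2 against 7.72%, and 2 have a q-value under 0.05 in the authors' deposited table, against 8.54%. With 10 genes chosen knowing earlier results, nothing particular to them is read from these counts. The 3 comparisons share libraries, so their values are not independent.

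**Figure D2:**
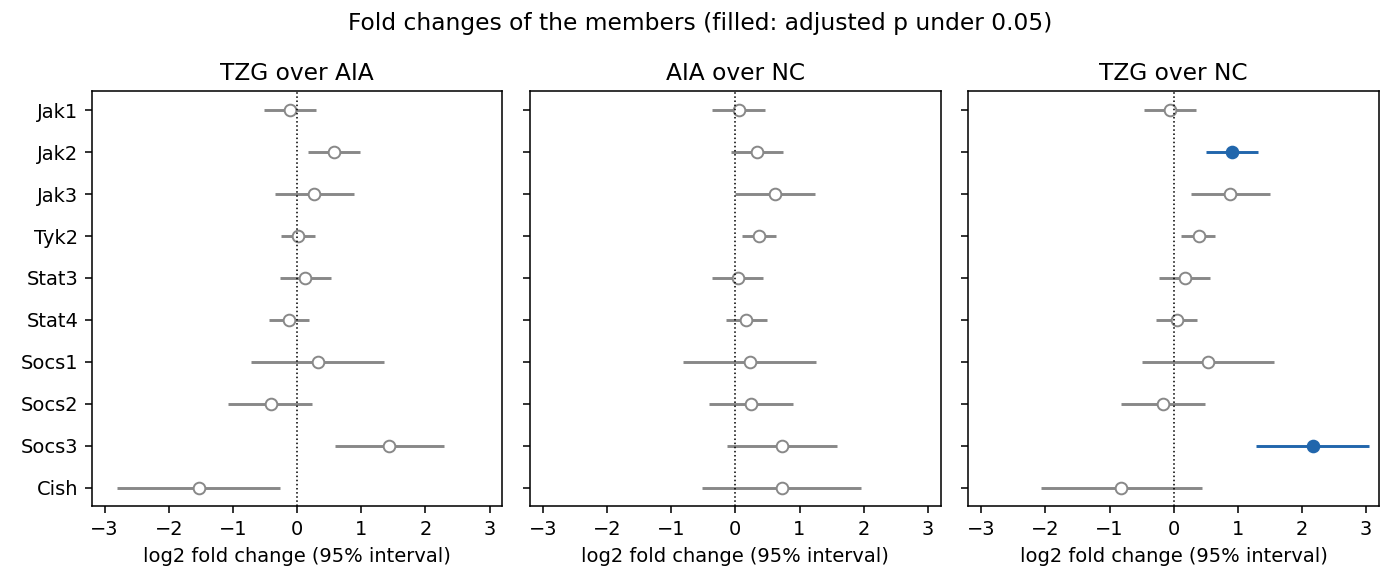
Log2 fold changes of the 10 genes from edgeR with 95% intervals not adjusted for the number of tests, for TZG over AIA, AIA over NC and TZG over NC (left to right). Filled blue points, Jak2 and Socs3 in TZG over NC, had an adjusted p under 0.05.

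Of the kinases, Jak2 (ENSRNOG00000059968, chromosome 1 from 247398598 to 247458509 in the deposited table, whose genome build is not given in the sources used here) stood at 133, 106 and 148 CPM in the TZG libraries G30, G31 and G48, at 75.3, 104 and 81.2 in the AIA libraries M2, M6 and M8, and at 72.6, 76.6 and 57.2 in the NC libraries C56, C59 and C61. Every TZG library was above every AIA and NC library, though G31 and M6 were close. Jak2 rose in TZG against NC by a log2 fold change of 0.91 ± 0.18 (SE; edgeR adjusted p = 0.022). The call ended without C56 (adjusted p = 0.064) or G30 (adjusted p = 0.06), at log2 fold changes of 0.94 and 0.89. Without C61, M8 and G48, the libraries richest in muscle, red cell and cartilage transcripts, the value was 0.69 (adjusted p = 0.047). Against AIA the log2 fold change was 0.57 ± 0.18 (adjusted p = 0.31), and for AIA against NC it was 0.33 ± 0.18 (adjusted p = 0.43).

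Jak3, the kinase bound to the common gamma chain of interleukin-2 type receptors and found mainly in blood cells, was the least abundant kinase per length. It stood at 45.6, 38.1 and 54.4 CPM in TZG, at 31.7, 48.2 and 35.2 in AIA and at 24.9, 16.5 and 33.7 in NC. TZG and NC did not overlap, and AIA lay across both. In TZG against NC the log2 fold change was 0.88 ± 0.27 (adjusted p = 0.071). In edgeR it passed without C61, at 1.17 (adjusted p = 0.037), and without C61, M8 and G48, at 1.03 (adjusted p = 0.049). C61 was the NC library with the highest Jak3, so leaving it out by itself widens the difference. Of the 9 fits with 1 library left out, only 1 passed, the one without C61. Jak3 also passed in DESeq2 (adjusted p = 0.018) but not in limma-voom (adjusted p = 0.063). For AIA against NC the value was 0.62 ± 0.27 (adjusted p = 0.33) and in TZG against AIA 0.26 ± 0.27 (adjusted p = 0.7). The summed neutrophil markers of every TZG and AIA library exceeded those of NC, and B cell markers summed to 3.88 to 18.4 CPM in TZG, 3.88 to 21.0 in AIA and 0.634 to 2.12 in NC. T and NK cell markers summed to 113 to 212 CPM in TZG, 131 to 201 in AIA and 43.5 to 202 in NC. The part of these cells in the Jak3 level was not tested.

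Tyk2, which serves the receptors of type I interferons and of interleukins 12 and 23, had a log2 fold change of 0.02 in TZG against AIA (95% interval -0.25 to 0.28). It stood at 52.0, 53.1 and 61.1 CPM in TZG, at 49.5, 61.7 and 52.9 in AIA and at 41.9, 44.6 and 40.6 in NC. Both TZG and AIA lay above NC without overlap, and overlapped each other. The log2 fold change was 0.39 ± 0.12 in TZG against NC (adjusted p = 0.068; DESeq2 adjusted p = 0.025) and 0.37 ± 0.12 in AIA against NC (adjusted p = 0.19). Tyk2 was the 1 gene of the 10 without overlap in AIA against NC, where the groups did not overlap for 20.5% of all genes (11.2% higher and 9.22% lower). In TZG against NC there were 4, Jak2, Jak3, Tyk2 and Socs3, all higher, against 32.6% of all genes in either direction, 17.4% higher and 15.2% lower. TZG and AIA were apart for 3, Jak2 and Socs3 higher and Cish lower, against 23.4% of all genes (10.7% higher and 12.7% lower).

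Jak1, which pairs with the other kinases on gp130, interferon and common gamma chain receptors, stood at 414, 355 and 354 CPM in TZG, 448, 395 and 369 in AIA and 442, 434 and 294 in NC. Its lowest library, C61, was the one rich in muscle transcripts. Log2 fold changes were -0.06 (95% interval -0.47 to 0.35) in TZG against NC, -0.11 (-0.52 to 0.30) in TZG against AIA and 0.05 (-0.36 to 0.46) in AIA against NC. In the make-up of the kinase transcripts a higher Jak2 lowers the share of Jak1, so the shares in part restate the Jak2 levels. They were not tested. Of the summed FPKM of the 4 kinases, Jak2 held 19.4%, 18.1% and 22.8% in the TZG libraries, 11.6%, 16% and 14.1% in AIA and 11.5%, 12.4% and 12.6% in NC. Jak1 held 60.7% to 67.4% in TZG, 68.1% to 76.8% in AIA and 72.2% to 78.5% in NC, so that TZG lay apart from both groups for both shares. The FPKM ratio of Jak1 to Jak2 was 2.67 to 3.72 in TZG, 4.25 to 6.63 in AIA and 5.73 to 6.80 in NC.

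Neither STAT gene passed in any comparison. Stat3, which carries signals of the interleukin-6 family, stood at 375, 351 and 333 CPM in TZG, 387, 315 and 262 in AIA and 354, 323 and 264 in NC. Its log2 fold changes were 0.17 (95% interval -0.23 to 0.57) in TZG against NC, 0.13 (-0.26 to 0.53) in TZG against AIA and 0.04 (-0.36 to 0.43) in AIA against NC. Stat4, known for interleukin-12 signalling in T and NK cells, stood at 158, 150.0 and 144 CPM in TZG, 142, 182 and 170.4 in AIA and 134, 170.5 and 133 in NC. Its log2 fold changes in the same order were 0.05 (-0.27 to 0.36), -0.13 (-0.44 to 0.19) and 0.17 (-0.14 to 0.49). Stat4 was the gene with the narrowest spread, 1.36-fold from its lowest to its highest library. The T and NK cell markers summed to 43.5 CPM in C61 and 212 in G48, where Stat4 was at 133 and 144 CPM. They summed to 201 CPM in M6 and 202 in C59, where Stat4 was at 182 and 170.5 CPM. The part of these cells in the Stat4 level was not tested. Stat3 exceeded Stat4 in FPKM by 4.25 to 4.36 times in TZG, 2.83 to 5.01 in AIA and 3.48 to 4.85 in NC. These values are transcript levels and do not measure phosphorylated STAT protein.

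Socs3 (ENSRNOG00000002946, chromosome 10 from 106975178 to 106976040 in the deposited table) had the highest fold change of the 10 genes in TZG against NC. It stood at 57.1, 50.4 and 50 CPM in G30, G31 and G48, at 28.4, 20.8 and 8.89 in M2, M6 and M8, and at 11.2, 8.62 and 15.3 in C56, C59 and C61. The TZG libraries lay within a narrow range above all others, and M8 alone of the AIA libraries lay among NC. Against NC, Socs3 rose in TZG by a log2 fold change of 2.17 ± 0.39 (edgeR adjusted p = 0.018). The value ran from 1.99 to 2.42 with 1 library left out, and the call ended without C56 (2.14, adjusted p = 0.062). Without C61, M8 and G48 it was 2.44 (adjusted p = 0.0034), and with the 5 columns matched by number 2.29 (adjusted p = 0.19).

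Against AIA, Socs3 had a log2 fold change of 1.44 ± 0.37 in TZG (95% interval 0.59 to 2.29) that did not pass in edgeR (adjusted p = 0.27) but did in DESeq2 (adjusted p = 0.02). The authors' deposited table gives 1.45 with a q-value of 0.01. With 1 library left out the value ran from 1.09 without M8 to 1.82 without M2. AIA against NC gave 0.73 ± 0.38 (adjusted p = 0.41), 1.08 without M8 and 0.35 without M2 (adjusted p of 0.23 and 0.72). Without C61, M8 and G48, AIA against NC was 1.31 and passed (edgeR adjusted p = 0.036). That fit leaves out the lowest AIA library for Socs3, M8 at 8.89 CPM, and the highest NC library, C61 at 15.3 CPM. Their removal by itself widens the difference, so no rise in AIA is read from this pass. With 1 library left out, 0 of 9 fits passed (edgeR adjusted p from 0.23 to 0.72). The summed neutrophil markers were 898, 529 and 3631 CPM in G30, G31 and G48 and 337, 453 and 3167 CPM in M2, M6 and M8. The summed macrophage markers were 828 to 988 CPM in TZG, 598 to 1083 in AIA and 201 to 1033 in NC. The part of these cells in the Socs3 level was not tested.

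Cish (ENSRNOG00000029543, chromosome 8 from 116054465 to 116060723 in the deposited table) was lower in every TZG library than in every AIA library, without passing in edgeR. It stood at 27.9, 20.2 and 25.9 CPM in TZG, at 28.5, 55.7 and 130.2 in AIA and at 53.3, 57.1 and 19.7 in NC. The groups were barely apart, since M2 exceeded G30 by less than 1 CPM, and TZG and NC overlapped at C61. The log2 fold change in TZG against AIA was -1.53 ± 0.56 (95% interval -2.80 to -0.27; edgeR adjusted p = 0.33, DESeq2 adjusted p = 0.11). The authors' deposited table gives -1.51 with a q-value of 0.044. Without M8 the value was -0.77 (adjusted p = 0.69). AIA against NC gave 0.72 ± 0.55 (adjusted p = 0.6), and -0.04 without M8. M8 also held the most erythroid markers, at 690.2 CPM, where TZG libraries and M2 and M6 had 61.6 to 93.9. The NC libraries had 6.03 to 15.0 CPM of them, with Cish in C56 and C59 above every TZG library. The erythropoietin receptor gene Epor, whose receptor acts through JAK2 and STAT5, stood at 12.7 CPM in M8, against at most 5.81 in any other library. The part of red cell precursors in the Cish level was not tested. In TZG against NC Cish was at -0.82 ± 0.55 (adjusted p = 0.36), -1.14 without C61, and -1.19 without C61, M8 and G48 (adjusted p = 0.058).

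Socs1, the inhibitor of interferon signalling, was the scarcest of the genes in reads. It stood at 7.46, 9.41 and 12.2 CPM in TZG, at 5.20, 12.8 and 5.31 in AIA and at 10.1, 6.12 and 3.70 in NC, with all groups overlapping. Socs2, which limits growth hormone signalling, stood at 20.2, 13.9 and 21.4 CPM in TZG, at 16.4, 24.3 and 33.2 in AIA and at 24.1, 15.4 and 22.8 in NC. Its highest library was again M8. Neither passed in any comparison, with log2 fold changes of 0.53 and -0.16 in TZG against NC, 0.32 and -0.41 in TZG against AIA, and 0.22 and 0.25 in AIA against NC for Socs1 and Socs2 (adjusted p from 0.48 to 0.87). The interval of Socs1 in TZG against AIA, -0.72 to 1.35, allows a change of more than 2-fold in the upward direction.

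Within the 4 feedback genes, the share of Socs3 in their summed FPKM was 69.1%, 70.5% and 63.1% in TZG, 56.7%, 34.4% and 13.0% in AIA and 23.3%, 22.6% and 41.0% in NC. Cish held 9.20%, 7.70% and 8.88% in TZG, 15.5%, 25.1% and 51.7% in AIA and 30.2%, 40.7% and 14.4% in NC. The FPKM ratio of Socs3 to Cish was thus 7.10 to 9.16 in TZG, 0.251 to 3.66 in AIA and 0.555 to 2.85 in NC. The TZG libraries were alike in this ratio and the other 2 groups were not. A higher Socs3 lowers the share of Cish, so the shares and the ratio restate the levels of these genes given above. Neither the shares nor the ratio were tested. The summed FPKM of the 4 genes was 91.8 ± 7.71 in TZG, 70.5 ± 10.9 in AIA and 46.1 ± 8.54 in NC (SD, n = 3 each). Socs3 alone averaged 62.1, 22.9 and 12.9 FPKM in TZG, AIA and NC, so the sum largely restates Socs3 in TZG. Socs1 also had its highest mean in TZG, but Socs2 and Cish had their lowest there. The sum is no joint rise of the 4 genes, and it depends on the 863-base gene model of Socs3.

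**Figure D3:**
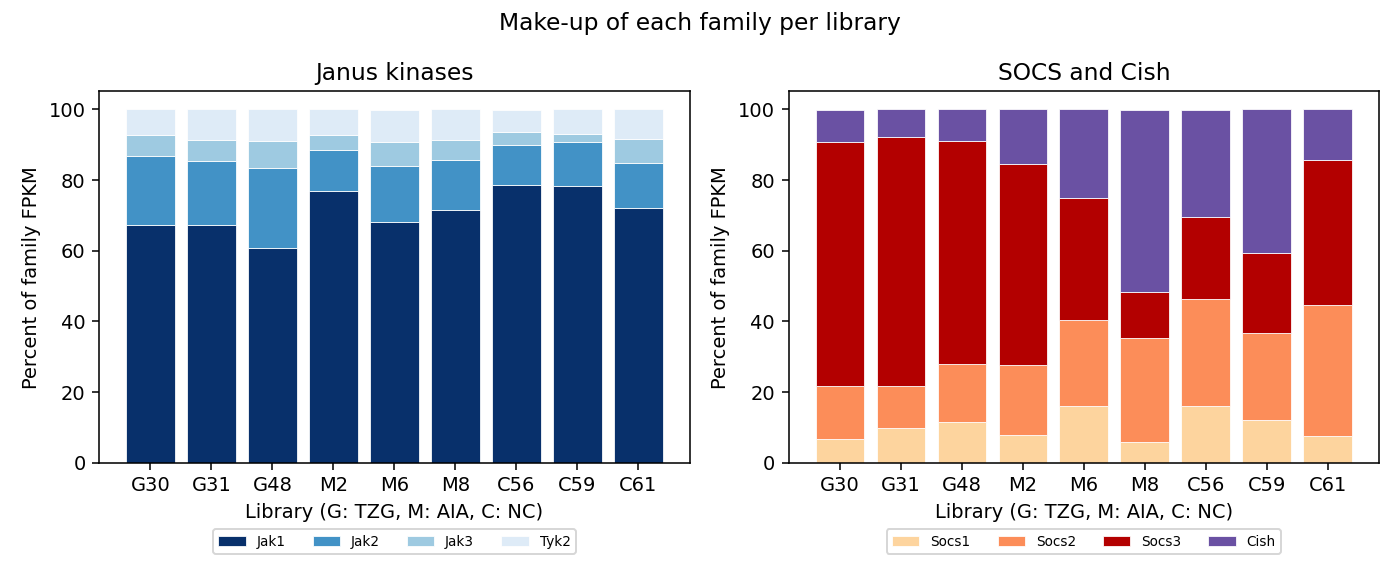
Stacked bars give each gene's percent of the summed FPKM of the 4 Janus kinases (left) and of Socs1, Socs2, Socs3 and Cish (right), with 1 bar a library, TZG libraries first, then AIA and NC. Socs3 holds 63.1% or more of the feedback transcripts in each TZG library and Cish 51.7% in the AIA library M8.

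Promoters were searched for a short palindrome that STAT proteins bind, TTCNNNGAA, which reads the same on both strands. RefSeq gives, for build GRCr8, windows of 250 bases before to 50 bases after the gene start for 6 of the 10 genes. Matches were found in 2 of these, printed 5′ to 3′ on the gene's strand with each match in capitals. The Cish window lies at chr8:116850719-116851018 on the plus strand and the Socs1 window at chr10:5389324-5389623 on the plus strand.
Cish: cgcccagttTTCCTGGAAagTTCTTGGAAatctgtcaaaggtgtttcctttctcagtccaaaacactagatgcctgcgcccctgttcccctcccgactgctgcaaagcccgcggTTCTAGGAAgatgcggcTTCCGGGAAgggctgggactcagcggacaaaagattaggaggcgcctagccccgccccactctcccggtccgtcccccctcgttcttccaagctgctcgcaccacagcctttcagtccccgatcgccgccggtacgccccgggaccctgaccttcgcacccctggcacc
Socs1: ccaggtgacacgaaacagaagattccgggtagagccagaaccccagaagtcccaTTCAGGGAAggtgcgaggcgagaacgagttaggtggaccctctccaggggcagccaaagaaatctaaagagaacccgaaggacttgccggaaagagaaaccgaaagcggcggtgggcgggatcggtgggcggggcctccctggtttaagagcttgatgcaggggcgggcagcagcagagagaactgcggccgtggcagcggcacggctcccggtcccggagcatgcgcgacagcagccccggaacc
The Cish window held 4 matches, TTCCTGGAA, TTCTTGGAA, TTCTAGGAA and TTCCGGGAA, which start at positions -241, -230, -136 and -119 relative to the gene start. The Socs1 window held 1, TTCAGGGAA, at position -196. Of all 33469 windows, 8.87% held at least 1 match and 0.547% at least 2. The windows of Jak2, Stat3, Stat4 and Socs3 held none and are not printed. No window was found for Jak1, Jak3, Tyk2 and Socs2, so their promoters were not examined. The windows start from RefSeq's gene start, which need not be where these transcripts begin, the Socs3 entry in particular. For Socs3 the result says only that these letters are not in that window. A match describes the letters and not binding.

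**Figure D4:**
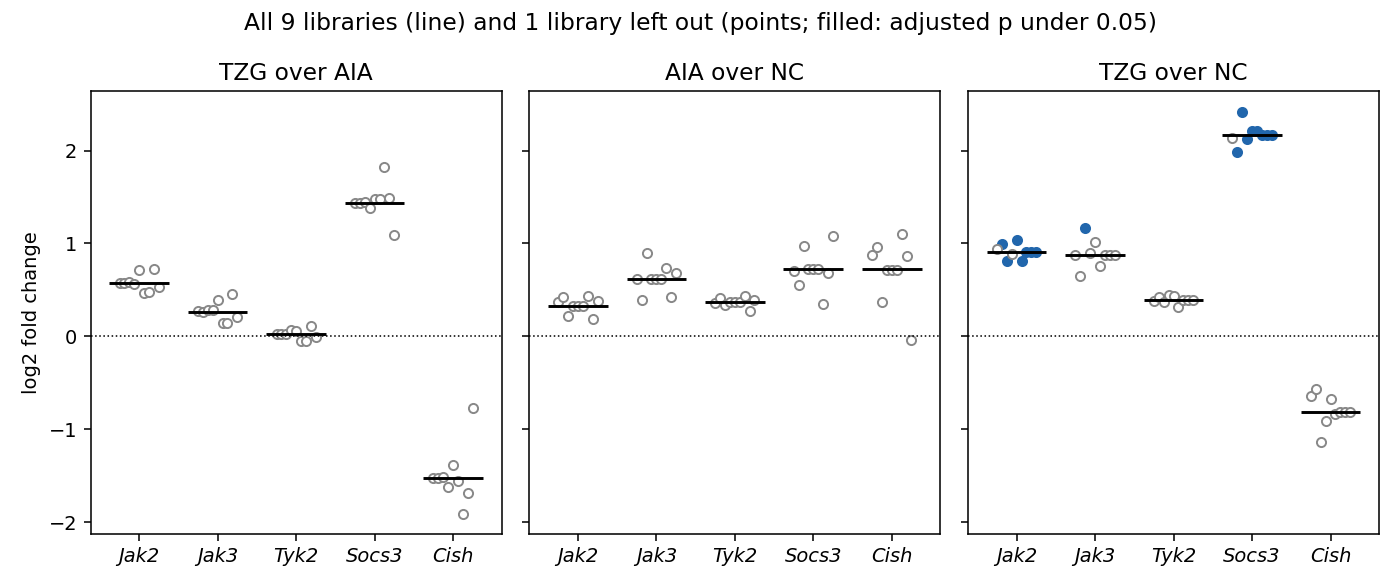
Log2 fold changes of Jak2, Jak3, Tyk2, Socs3 and Cish for TZG over AIA, AIA over NC and TZG over NC, with all 9 libraries (line) and with each library left out in turn (points, filled where the adjusted p was under 0.05). Socs3 in TZG over NC stays between 1.99 and 2.42, and Cish in AIA over NC falls to -0.04 without M8.

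The cytokines that feed the pathway were mostly scarce. Of 32 in a list of cytokines and hormones that signal through Janus kinases, 11 had enough reads to be tested. In TZG against NC 2 rose and 0 fell, Il6 and oncostatin M (Osm), where 10.3% of all genes passed. The list's median log2 fold change was 0.47, against -0.02 over all genes. Il6 stood at 8.46, 11.1 and 5.88 CPM in TZG, 0.953, 1.36 and 0 in AIA and 0.825, 0.527 and 0 in NC, with a log2 fold change of 4.14 ± 1.03 against NC (edgeR adjusted p = 0.041). The count in M8 and in C61 was 0 reads. Osm stood at 5.80, 2.91 and 4.92 CPM in TZG, 2.35, 1.56 and 1.38 in AIA and 0.698, 1.45 and 0.353 in NC (2.41 ± 0.51 against NC, adjusted p = 0.025). The Il6 call held in 1 of 9 fits with 1 library left out, the one without M8, and not in limma-voom (adjusted p = 0.058) or without the filter on low counts (adjusted p = 0.056). That of Osm held in 6 of 9 and ended without C56, G30 or G48. It also ended with only the TZG and NC groups in the fit (edgeR adjusted p = 0.054). The other tested ligands of gp130 receptors, Lif, Clcf1 and Ctf1, had log2 fold changes of 2.31, 0.47 and -0.45 against NC (adjusted p of 0.056, 0.36 and 0.25). In edgeR 0 passed in the comparisons of TZG with AIA and of AIA with NC, and in DESeq2 2 and 0 (2.12% and 6.26% of all genes). The smallest p in TZG against AIA belonged to Lif, another gp130 ligand, at 3.88 ± 1.95 against 0.606 ± 0.375 CPM (2.66 ± 0.67, adjusted p = 0.26), then Il6 (3.45 ± 0.98, adjusted p = 0.3) and Osm (1.36 ± 0.48, adjusted p = 0.33). For AIA against NC they belonged to Il12a, Osm and Il7, with log2 fold changes of -1.42, 1.05 and 1.60 (adjusted p from 0.32 to 0.43).

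Receptors moved in both directions in TZG against NC. Of 33 tested receptor genes 8 rose and 2 fell, where 5.79% of all genes rose and 4.53% fell, with a median log2 fold change of 0.43 against -0.02 over all genes. The common gamma chain Il2rg, the partner of Jak3, stood at 45.7 ± 4.67 CPM in TZG and 21.9 ± 3.11 in NC (1.06 ± 0.18, adjusted p = 0.016), and Il21r at 12.6 ± 0.367 against 1.16 ± 0.674 CPM (3.40 ± 0.57, adjusted p = 0.015). Csf3r, the receptor of the neutrophil growth factor, stood at 50.2 ± 26.8 against 1.75 ± 0.438 CPM (4.86 ± 0.64, adjusted p = 0.013) and is itself among the neutrophil markers. Il4r, Il7r, Ifngr2, Csf2ra and Crlf2, named here after their values were seen, rose by 0.81, 2.70, 0.66, 0.97 and 0.58 (adjusted p of 0.038, 0.043, 0.014, 0.046 and 0.026). With 1 library left out these calls held in 2, 1, 8, 1 and 4 of 9 fits, against 9 of 9 for Csf3r and Il2rg and 8 of 9 for Il21r. Il7r did not pass in limma-voom (adjusted p = 0.084), nor Csf2ra without the filter on low counts (adjusted p = 0.054). The 2 that fell were Lifr, a partner of gp130, at 78.4 ± 27.7 CPM in TZG and 161 ± 7.48 in NC (-1.04 ± 0.23, adjusted p = 0.029), and the leptin receptor Lepr at 15.7 ± 2.32 against 31.4 ± 3.45 CPM (-1.0 ± 0.20, adjusted p = 0.021), calls that held in 4 and 6 of 9 such fits. With only the TZG and NC groups in the fit, Il4r, Il7r, Csf2ra, Crlf2 and Lifr did not pass. Their edgeR adjusted p was then 0.08, 0.064, 0.1, 0.067 and 0.065. Against AIA, 0 receptors passed in edgeR and 2 did in DESeq2, which called 2.12% of all genes. The smallest p there belonged to Lepr, Lifr and the gp130 gene Il6st, with log2 fold changes of -0.94 ± 0.20, -1.05 ± 0.23 and -0.52 ± 0.16 (adjusted p of 0.26, 0.26 and 0.31). In these 3 genes, picked by smallest p, the TZG libraries lay below all AIA libraries, as for 12.7% of all genes. Il6st did not differ in that way from NC. It averaged 500.2 ± 70.9 CPM in TZG, 716 ± 23.9 in AIA and 503 ± 74.5 in NC. Its log2 fold change was -0.01 ± 0.16 in TZG against NC and 0.51 ± 0.16 in AIA against NC (edgeR adjusted p of 0.98 and 0.19). Of the receptors in AIA against NC, 0 passed in edgeR and 7 in DESeq2, which called 6.26% of all genes, with Csf3r, Il2rg and Il21r at 4.53, 1.01 and 3.12 (edgeR adjusted p of 0.075, 0.092 and 0.092). Adipocyte markers summed to 890.0 to 4250.2 CPM in TZG, 4848 to 6793 in AIA and 2442 to 8701 in NC, and their part in the levels of Lepr and Lifr was not tested.

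Of 17 other STATs, SOCS genes and inhibitors tested, 3 rose in TZG against NC and 0 fell, where 5.79% of all genes rose and 4.53% fell. The 3 encode tyrosine phosphatases. Ptpn11, another phosphatase gene of the list, averaged 196 ± 13.5 CPM in TZG and 226 ± 29.9 in NC (-0.21 ± 0.12, adjusted p = 0.31). Ptpn1 stood at 60.7 ± 11 CPM in TZG and 35.0 ± 3.21 in NC (0.79 ± 0.17, adjusted p = 0.026), Ptpn2 at 25.7 ± 3.66 against 14.8 ± 2.16 (0.80 ± 0.17, adjusted p = 0.024) and Ptpn6, found mainly in blood cells, at 82.7 ± 14.9 against 30.6 ± 14.0 (1.43 ± 0.36, adjusted p = 0.042). These calls held in 4, 6 and 3 of 9 fits with 1 library left out. With only the TZG and NC groups in the fit, Ptpn2 and Ptpn6 did not pass (edgeR adjusted p of 0.053 and 0.072). Ptpn6 also did not pass without the filter on low counts (adjusted p = 0.056). The median of the list was -0.01, against -0.02 over all genes. None passed in the other 2 comparisons in edgeR, and DESeq2 gave 1 in AIA against NC, where it called 6.26% of all genes. There Ptpn1, Ptpn2 and Ptpn6 had the smallest p as well, with log2 fold changes of 0.66, 0.45 and 0.92 (edgeR adjusted p of 0.13, 0.24 and 0.27). Stat5b, the STAT of growth hormone and erythropoietin signalling that Cish restrains, came first in TZG against AIA, at 79.7 ± 5.09 against 100.1 ± 4.17 CPM (-0.33 ± 0.10, adjusted p = 0.31), with no overlap of the libraries. Ptpn2 and Ptpn6 came next, at 0.34 and 0.51 (adjusted p of 0.42 and 0.56). Stat5a, the other STAT5 gene, averaged 67.3 ± 16.5 CPM in TZG and 68.3 ± 7.56 in AIA (-0.02 ± 0.18, adjusted p = 0.97).

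Of 22 tested genes known to be induced by STATs, 6 rose and 1 fell in TZG against NC, where 5.79% of all genes rose and 4.53% fell. Their median log2 fold change was 0.67, against -0.02 over all genes. The transcription factor gene Cebpd averaged 150.2 ± 40 CPM in TZG libraries, against 47.1 ± 11.1 in those of NC (1.67 ± 0.34, adjusted p = 0.024), its relative Cebpb at 296 ± 63.7 against 143 ± 18.2 (1.05 ± 0.19, adjusted p = 0.018) and the protease inhibitor Timp1 at 223 ± 46.1 against 43.7 ± 14.5 (2.35 ± 0.39, adjusted p = 0.015). Irf4 and Il18rap rose by 1.18 and 4.12, and the kinase gene Pim1, named after its value was seen, by 1.42. The cyclin Ccnd1 fell to 106 ± 21.9 CPM in TZG, against 297 ± 99.6 in NC (-1.48 ± 0.30, adjusted p = 0.023). With 1 library left out, the call of Timp1 held in 9 of 9 fits, that of Il18rap in 8, Cebpb in 7, Irf4 and Pim1 in 6, Ccnd1 in 5 and Cebpd in 4. Il18rap did not pass in limma-voom (adjusted p = 0.099), nor Irf4 with only the TZG and NC groups in the fit (edgeR adjusted p = 0.065). Il18rap was highest in G48 and then M8, the libraries with the highest summed neutrophil markers (3631 and 3167 CPM). The part of these cells in the Il18rap level was not tested. Of the induced genes 0 passed in edgeR in TZG against AIA and 2 did in DESeq2 (2.12% of all genes), and Cebpb, Timp1 and Cebpd had the smallest p, at 0.75, 1.39 and 0.79 (edgeR adjusted p of 0.26, 0.27 and 0.39). No induced gene passed in AIA against NC in edgeR and 5 did in DESeq2 (6.26% of all genes), and Irf4, Il18rap and Ccnd1 had the smallest p, at 1.32, 3.67 and -1.24 (edgeR adjusted p of 0.094, 0.1 and 0.12). Over the 4 lists, calls in TZG against NC were lost with single libraries. Without C56, 0 cytokines, 2 receptors, 0 inhibitors and 1 induced gene passed. Without G30 these were 0, 6, 0 and 3, and without G48 they were 0, 6, 0 and 5.

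**Figure D5:**
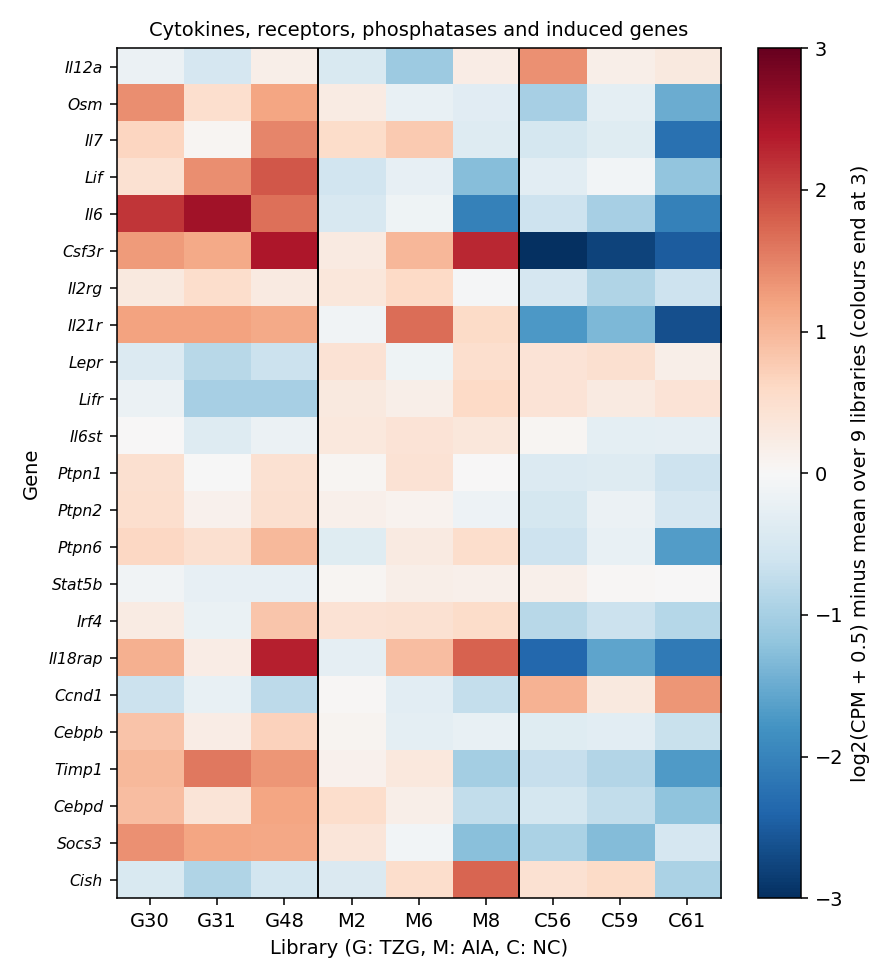
Colours give log2(CPM + 0.5) minus the gene's mean over the 9 libraries, red higher and blue lower and ending at 3, with genes in rows (cytokines, receptors, inhibitors, induced genes, then Socs3 and Cish) and libraries in columns from TZG through AIA to NC. Il6, Osm, Timp1 and Socs3 are reddest in the TZG columns, and the AIA library M8 is blue for Il6 and Socs3 and red for Cish.

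Cish, Socs3 and Socs1 had the widest ranges over the libraries, at 2.72, 2.71 and 1.75 on the log2 CPM scale. For these, the genes with the most similar profile were sought among 11773 genes with a mean of at least 5 CPM, by the root-mean-square difference of mean-centred log2 CPM over the 9 libraries. Socs3 was closest to Nek6 at 0.30, Nfkbiz at 0.39 and Slc39a14 at 0.44. Nek6, a mitotic kinase, averaged 82.6 CPM in TZG, 36.9 in AIA and 24 in NC, and the zinc transporter Slc39a14 averaged 273, 119.7 and 51.1 CPM. Nfkbiz, a regulator of NF-kB target genes, averaged 36.4, 15.3 and 9.32 CPM in TZG, AIA and NC. For Cish the nearest were Irs1 at 0.50, Fhdc1 at 0.53 and LOC100911730 at 0.54. For Socs1 they were Armcx2, AABR07068975.1 and Paqr8, at 0.26 to 0.28. The measure favours genes with small ranges, so the values are comparable only within 1 gene.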

How the data were processed

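Synovium RNA of Lewis rats was sequenced in 9 libraries of the groups TZG, AIA and NC. Per the labels' protocols, RNA came from RNeasy columns and libraries from a SMARTER kit. Per the submitters' processing notes, the tools include edgeR 3.30.3 and StringTie 1.3.3b beside HISAT2 and fastp, without a stated role. The genome build is not given in the sources used here. The deposited counts are whole numbers for each gene in columns headed as counts. They were taken here as reads that are not normalised, which the headers do not state. The authors deposited FPKM values, which equal counts divided by a fixed gene length and the library total. They also deposited a log2 fold change and a q-value for each of 3 comparisons. Both tables of the series hold the same bytes, so 1 entered the work. Of the columns, 5 matched a sample title and 4 were placed by letter, as the authors' mean FPKM per group did (largest relative difference 0.00036). The 4 FPKM columns placed by letter were not used, and FPKM was recomputed from counts and recovered lengths.

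Counts were tested with edgeR 4.0.16 (R 4.3.3), a robust quasi-likelihood fit of all 9 libraries with TMM factors after filterByExpr, with Benjamini-Hochberg adjustment over 15068 genes and a threshold of 0.05. The fit was tested on simulated data. A standard error is the size of the log2 fold change over the root of its F. Levels are CPM with TMM factors, or FPKM. Depth was 12536231 to 16402126 reads. Intervals are 95% intervals not adjusted for the number of tests. Alternatives were RLE factors, DESeq2 1.42.0, limma-voom (limma 3.58.1), no filter, 2 groups per fit, each library left out, C61, M8 and G48 left out, and only the 5 columns matched by number.

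The 10 genes, the 4 pathway lists (109 of 112 entries matched), the 11 marker lists (62 of 65 matched) and the alternatives were chosen with earlier results of these data known. Named genes were the 10 and the 3 smallest p of each pathway list in AIA against NC and in TZG against AIA. The 3 nearest profiles of the 3 genes with the widest range were also named. Genes that passed in TZG against NC were added after their values were seen. Epor, Clcf1, Ctf1, Ptpn11 and Stat5a were named outside these rules. Promoter sequences are from RefSeq, build GRCr8.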

Additional observations from a re-analysis of the deposited data

How the results depend on the processing

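No paired analysis was possible because the labels give no replicate numbers shared between groups. Direction and side of the threshold held for 445 of 480 alternative values of the 10 genes. The number of these genes that passed in TZG against NC, 2 with all libraries, was 4 in DESeq2, 0 with the 5 columns matched by number and 0 to 3 with 1 library left out (0 without C56, 1 without G30, 3 without C61). In TZG against AIA it was 0, and 1 in DESeq2. In AIA against NC it was 0, and 1 without C61, M8 and G48. Over all genes, 1555 passed in TZG against NC, 2951 in DESeq2, 763 with 2 groups per fit, 0 with the 5 columns and 335 to 1314 with 1 library left out. In AIA against NC 2 passed, 940 in DESeq2, 1 in limma-voom, 1 with 2 groups per fit, 4 without a filter, 180 without C61, M8 and G48, 0 with the 5 columns and 0 to 98 with 1 library left out. In TZG against AIA 0 passed, 300 in DESeq2 and 1 without C61, M8 and G48. The 5 columns leave 1 library each in AIA and TZG, which are assumed to vary like NC, and leave fewer samples to test. For the other changes the cause was not tested.

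Signs turned for some values. In AIA against NC, log2 fold changes without C61, M8 and G48 were -0.06 for Jak1 and -0.39 for Cish, against 0.05 and 0.72 with all libraries. With 1 library left out they ran from -0.11 to 0.15 for Jak1, -0.12 to 0.16 for Stat3, -0.35 to 0.65 for Socs1, -0.03 to 0.47 for Socs2 and -0.04 to 1.10 for Cish. In TZG against AIA they were -0.07 for Tyk2 and -0.09 for Socs1 without C61, M8 and G48, and 0.07, -0.08, -0.25 and -0.78 for Jak1, Jak3, Tyk2 and Socs1 with the 5 columns. With 1 library left out Tyk2 ran from -0.05 to 0.11. In TZG against NC, Jak1 was 0.09 with the 5 columns, and with 1 library left out Jak1 ran from -0.21 to 0.04, Stat4 from -0.01 to 0.17 and Socs2 from -0.34 to 0.01. Of the other named genes, 119 of 736 alternative values lost and 18 gained a call, and none turned. With 3 libraries a group, the interval of Socs1 in TZG against AIA still spans -0.72 to 1.35.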
